A study of Mus musculus with 10 samples.

Results

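AP-1 is a dimeric transcription factor built from a FOS family protein and a JUN family protein, or from a pair of JUN proteins. FOS proteins (here encoded by Fos, Fosb, Fosl1 and Fosl2) cannot pair with themselves, so the JUN proteins (Jun, Junb, Jund) are their partners, and ATF3 is a stress-inducible protein of the same basic leucine zipper class. Most of these genes, together with Egr1 (a zinc finger transcription factor) and Ier2 (a small nuclear protein), belong to the immediate early genes, whose transcripts appear within minutes of a stimulus without new protein synthesis and are short-lived. In TGF-β signaling, SMAD3 and SMAD4 act with AP-1 at many target promoters, which is why this family is of interest in a lens that makes active TGF-β1. The 10 genes were taken by symbol from a table of 50763 genes, and all 10 had a row.

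RNA of isolated lens epithelium was sequenced from FVB/N mice of 3 weeks of age. WT mice (n = 3 libraries) were compared with homozygous mice of the transgenic lines OVE853 (n = 3) and OVE918 (n = 4), in which the αA-crystallin promoter drives a secreted, constitutively active human TGF-β1 in the lens. Each library was a pool, of up to 9 mice for WT and OVE853 and of up to 7 for OVE918, and the transgenic explants carried the plaque of anterior subcapsular cataract, so a library holds plaque cells and monolayer epithelium in unknown shares, and fewer cells of a type cannot be told apart from less RNA per cell. The p-values below measure the spread between these pools.

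Total counts were 24073311 to 31908525 per library. The transgene checked the labels: Tgfb1 was at 50.6 to 61.7 CPM (counts per 1000000 counts of the library, scaled by TMM factors) in WT, 339 to 361 CPM in OVE853 and 715 to 881 CPM in OVE918, without overlap. All 8 lens epithelium markers had counts in every library. Among markers of neighboring tissues, WT replicate 3 had the highest summed levels for retinal neurons, 1046 CPM (161 and 162 CPM in the other WT libraries), for Müller glia, 1530 CPM (464 and 467 CPM), and for cornea, 1619 CPM (237 and 938 CPM in WT replicates 1 and 2). WT replicate 1, the WT library with the highest members, had the highest sums for ciliary epithelium, 879.8 CPM (482 and 323 CPM), and for pigmented epithelium and melanocytes, 144 CPM (44.7 and 62.1 CPM). The glial, ciliary and corneal sums were lower in every transgenic library than in any WT library, with their part in the members' levels not tested, so each member is given library by library.

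Of the 10 genes, 9 reached at least 2 FPKM (CPM divided by the exon length in kilobases) in at least 5 of the 10 libraries, before TMM scaling, and were tested among 11097 genes. Fosb passed in exactly 5 libraries, Atf3 in 9, and the other 7 tested members in all 10. Fosl1, which encodes the FOS protein often called FRA1, was not tested. It had 0, 0 and 11 counts in WT, 4, 1 and 8 counts in OVE853, and 3, 1, 6 and 8 counts in OVE918, which is at most 0.386 CPM. A total of 3 counts is the limit that a count of 0 allows, so in the WT libraries at 0 a level below that limit was not detectable at this depth.

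None of the 9 tested members was called in either line. A call needed an edgeR quasi-likelihood FDR no higher than 0.05 together with a log2 fold change of 1 or more, up or down. Among all genes tested, 4.42% were called for OVE853 versus WT, 5.6% for OVE918 versus WT and 0.487% for OVE918 versus OVE853. At an unadjusted p under 0.05 the count of members was 1, 1 and 0 in these comparisons, Fosl2 in both cases, against 34.1%, 33.2% and 22.9% of all genes. Groups did not overlap for 45.4%, 27.2% and 29.5% of all genes, and for 0 of the 10 members in each comparison. The levels below show what lies behind these counts. For 8 of the 9 tested members, the within-group SD of log2 CPM exceeded the range of the 3 group means. The margin was small for Atf3 (2.04 against 2.01) and for Jund (0.44 against 0.36). These 8 members also varied together.

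Fos, the founding member of the family, was at 382, 31.4 and 315 CPM in WT replicates 1, 2 and 3. In OVE853 it was at 139.6, 68.8 and 621 CPM, and in OVE918 at 57.6, 987, 137 and 315 CPM. Within each genotype the highest library exceeded the lowest by 9.03-fold to 17.1-fold, and the 3 groups overlapped. The group means were 243 ± 186 CPM (SD, n = 3) in WT, 276 ± 300.4 CPM (n = 3) in OVE853 and 374 ± 423 CPM (n = 4) in OVE918. Its log2 fold change was 0.19 (SE 1.23, edgeR FDR 0.928) in OVE853 and 0.62 (SE 1.17, FDR 0.757) in OVE918. The 95% interval for OVE853 ran from -2.63 to 3.01, so a change of severalfold in either direction was not detectable with this spread.

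Fosb, a FOS protein induced along with Fos, showed the widest range of any member. It was at 46.5, 0.692 and 19.5 CPM in WT, at 5.38, 0.593 and 109.7 CPM in OVE853, and at 1.07, 163, 7.58 and 37.0 CPM in OVE918. The library with the most Fosb had 274 times the level of the library with the least, and both were transgenic. Its within-group SD of 3.28 on the log2 scale was the highest of all 11097 genes tested. The log2 fold changes were 0.80 (SE 1.95, edgeR FDR 0.796) in OVE853 and 1.23 (SE 1.87, FDR 0.696) in OVE918.

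Fosl2 encodes FRA2, a FOS protein with slower and more lasting expression, and it behaved differently from Fos and Fosb. It was at 27.7, 35.8 and 28.7 CPM in WT, at 40.8, 32.8 and 42.2 CPM in OVE853, and at 33.8, 45.3, 38.0 and 40.2 CPM in OVE918. Of the 7 transgenic libraries, 5 lay above every WT library, and the other two lay below WT replicate 2, the WT library in which the other tested members were lowest. The log2 fold change was 0.33 (SE 0.14, edgeR FDR 0.132) in OVE853, with a 95% interval of 0.01 to 0.65, and 0.36 (SE 0.14, FDR 0.0910) in OVE918, with an interval of 0.06 to 0.65. Neither passed the FDR limit, and both intervals stay below the log2 fold change of 1 that a call required. Between the lines the difference was 0.03 (SE 0.13, FDR 0.922). Without WT replicate 2 the FDR for OVE918 was 0.0473, with a log2 fold change of 0.48.

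**Figure D1:**
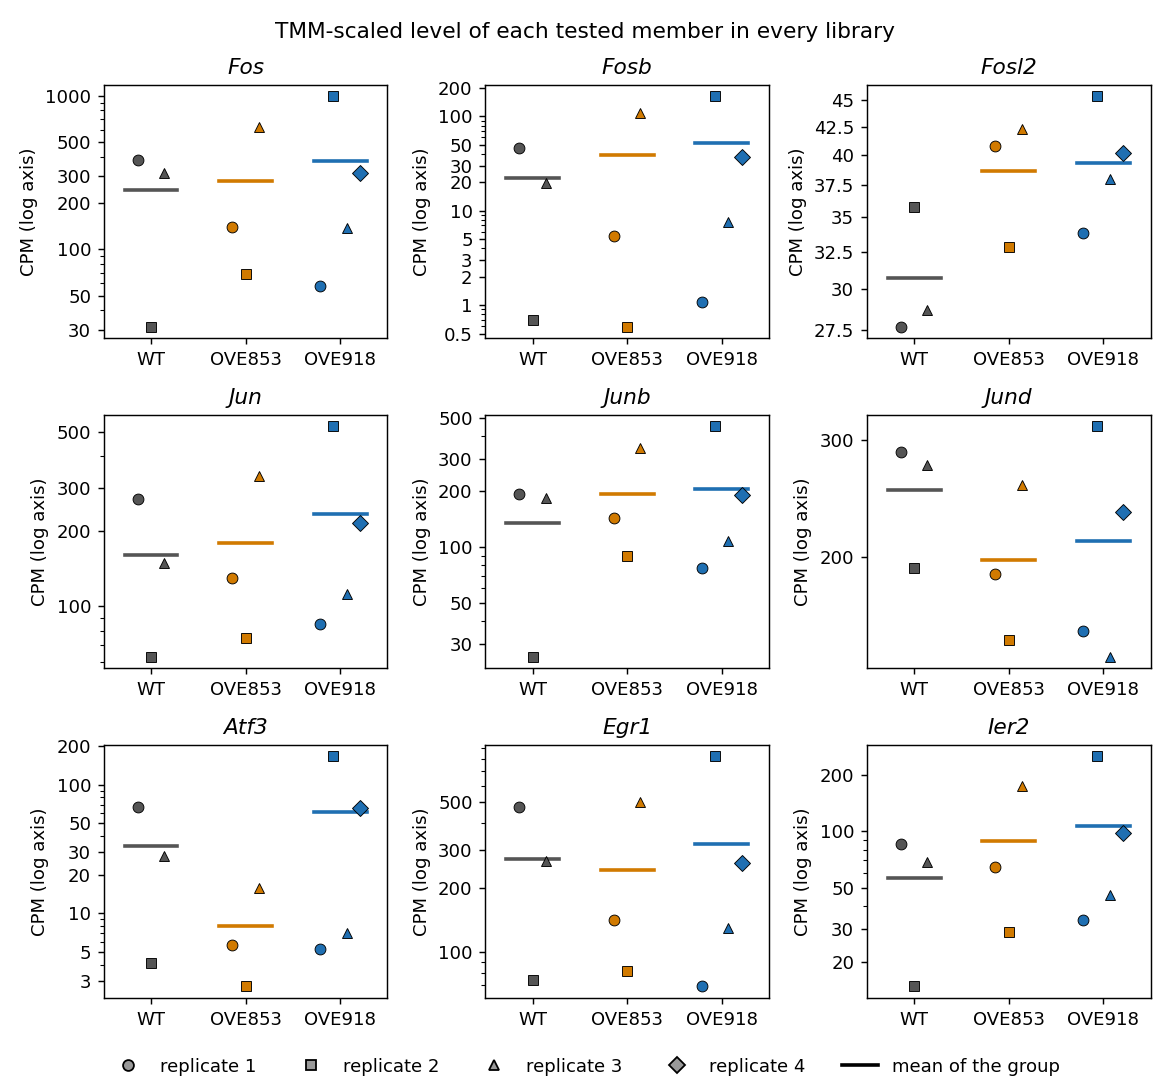
Level of each tested member in every library, in CPM scaled by TMM factors on a log axis, for WT (n = 3), OVE853 (n = 3) and OVE918 (n = 4). Points are pools with a marker for the replicate number and bars are group means; in every panel except Fosl2 the same library is highest within each group, and in no panel are the groups apart.

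Among the JUN genes, Jun was at 269.8, 63.0 and 150.0 CPM in WT. It was at 129.9, 74.5 and 335 CPM in OVE853, and at 84.8, 528, 112 and 216 CPM in OVE918. The libraries ranked as they did for Fos in every group, and the groups overlapped. The log2 fold changes were 0.16 (SE 0.83, edgeR FDR 0.908) in OVE853 and 0.55 (SE 0.79, FDR 0.678) in OVE918.

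Junb, whose product is a JUN protein with weaker activating capacity than JUN at many sites, was at 194, 25.7 and 185 CPM in WT. In OVE853 its levels were 144, 89.8 and 345 CPM, and in OVE918 they were 77.0, 449, 109 and 192 CPM. WT replicate 2 was below all other libraries, and OVE918 replicate 2 above all others. The log2 fold changes of 0.52 (SE 0.88, edgeR FDR 0.707) and 0.62 (SE 0.84, FDR 0.658) in OVE853 and OVE918 were smaller than their errors.

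Jund, the JUN gene that is expressed broadly in resting cells, varied least of the 8 members that moved together. It was at 288, 192 and 276 CPM in WT, at 188, 150.0 and 257 CPM in OVE853, and at 155, 314, 142 and 234 CPM in OVE918. The ratio of the highest to the lowest library was 2.22, against 8.38 for Jun and 17.4 for Junb. In its log2 fold changes, -0.34 (SE 0.31, edgeR FDR 0.446) in OVE853 and -0.25 (SE 0.29, FDR 0.582) in OVE918, it was the only tested member below 0 in both lines.

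Atf3 was at 67.4, 4.12 and 27.9 CPM in WT, at 5.68, 2.71 and 15.7 CPM in OVE853, and at 5.31, 166, 7.10 and 65.6 CPM in OVE918. All 3 OVE853 libraries lay below WT replicates 1 and 3, but WT replicate 2 lay within the OVE853 range. Its log2 fold change of -2.04 in OVE853 (SE 1.43, edgeR FDR 0.343) and of 0.89 in OVE918 (SE 1.29, FDR 0.682) had opposite signs, but neither passed the test. Without OVE918 replicate 2 the value in OVE918 was -0.35, and over the alternatives that in OVE853 ran from -2.97 (without OVE853 replicate 3) to -0.090 (limma voom with sample weights). The difference between the lines, 2.93 (SE 1.42, FDR 0.257), had a 95% interval from -0.32 to 6.18 and did not pass the test.

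Egr1, an activator of many growth factor and matrix genes, was at 478, 74.5 and 266 CPM in WT. It was at 141, 81.9 and 502 CPM in OVE853 and at 69.3, 821, 129 and 260.4 CPM in OVE918. Its group means were close together, 273 ± 202 CPM (SD, n = 3) in WT, 242 ± 227 CPM (n = 3) in OVE853 and 320.0 ± 343 CPM (n = 4) in OVE918, while the libraries of OVE918 alone spanned 11.9-fold. The log2 fold changes were -0.17 (SE 1.05, edgeR FDR 0.921) in OVE853 and 0.23 (SE 0.98, FDR 0.898) in OVE918.

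Ier2 was at 85.9, 14.9 and 69.1 CPM in WT, at 64.3, 29.2 and 174 CPM in OVE853, and at 33.8, 252, 46.0 and 97.9 CPM in OVE918. Here too WT replicate 2 was the lowest library of all and OVE918 replicate 2 the highest. The log2 fold changes were 0.66 (SE 0.95, edgeR FDR 0.650) in OVE853 and 0.92 (SE 0.90, FDR 0.527) in OVE918.

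**Figure D2:**
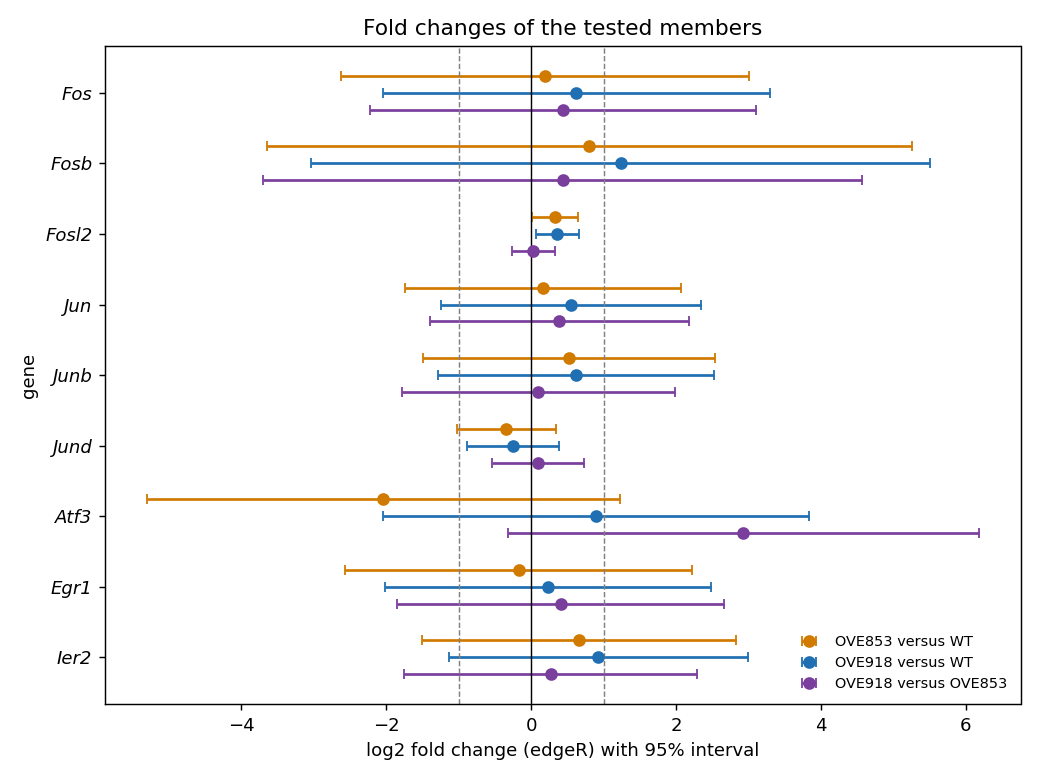
Log2 fold change of each tested member in 3 comparisons (OVE853 versus WT, OVE918 versus WT, OVE918 versus OVE853) from edgeR, with 95% intervals as bars and dashed lines at -1 and 1. The intervals of Fosl2 and Jund are the narrowest, those of Fosb and Atf3 the widest, and the Fosl2 intervals for both lines against WT are the ones that leave out 0.

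The order of the libraries was shared. In WT, replicate 1 was highest and replicate 2 lowest for Fos, Fosb, Jun, Junb, Jund, Atf3, Egr1 and Ier2, and in OVE853 replicate 3 was highest and replicate 2 lowest for the same 8 genes. In OVE918 all 8 were highest in replicate 2 and next highest in replicate 4, and 7 of them were lowest in replicate 1, with Jund lowest in replicate 3. Over all genes tested, 0.721% had this highest and lowest WT and OVE853 library and this highest OVE918 library, and 6.5% had the same highest library in each of the 3 groups. Fosl2 ran the other way in WT, where replicate 2 was its highest library, and had the order of Fos in OVE853 and OVE918, within its narrow range.

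The spread itself was large against the rest of the transcriptome. The within-group SD of log2 CPM was 3.28 for Fosb (rank 1 of 11097 genes), 2.04 for Atf3 (rank 6), 1.79 for Fos (rank 12), 1.43 for Egr1 (rank 26), 1.31 for Ier2 (rank 34), 1.26 for Junb (rank 43) and 1.12 for Jun (rank 63). All 7 were above the 99th percentile of 0.94, and the median gene had an SD of 0.18. Jund, with an SD of 0.44, ranked 864 and lay above the 90th percentile of 0.40, whereas Fosl2, with 0.19, ranked 5045 and was close to the median gene. Fos had 816 to 26505 counts in a library, whereas Fosb fell to 18, 16 and 25 counts in its lowest WT, OVE853 and OVE918 library and Atf3 to 73 counts in OVE853 replicate 2.

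**Figure D3:**
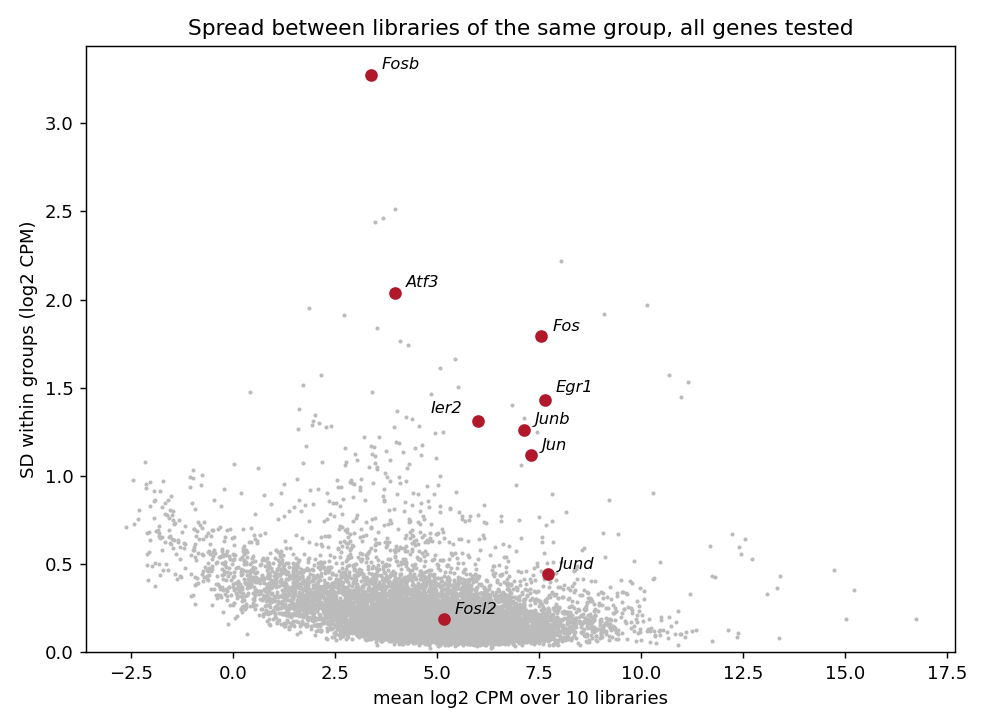
SD of log2 CPM between libraries of the same group (vertical axis) against mean log2 CPM over the 10 libraries (horizontal axis), with 1 grey point for each of the 11097 genes tested and the tested members in red. Fosb is the highest point, 6 other members lie above the 99th percentile of 0.94, and Fosl2 lies in the body of the genes.

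Deviations of log2 CPM from the group mean were compared between members over the 10 libraries, which share depth and tissue. Among the 8 genes that moved together, Pearson's r ran from 0.90 for Junb with Jund to 0.995 for Jun with Egr1. With Fosl2, r was 0.14 to 0.43. These values describe 10 libraries.

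Genes outside the family whose level over the 10 libraries was most like the mean standardized log2 CPM of the tested members were Ccn1 (r = 0.981), a secreted matricellular protein, Zfp36 (r = 0.977), which encodes an mRNA decay factor, Gadd45g (r = 0.965), a growth arrest and stress gene, and Maff (r = 0.931), a small basic leucine zipper factor. Ccn1 was at 214, 33.7 and 169 CPM in WT, at 97.0, 52.2 and 313 CPM in OVE853, and at 40.9, 390.5, 69.6 and 168 CPM in OVE918, the library order of Fos. Srf encodes the serum response factor, which binds the promoters of several immediate early genes. It ranked 12 in this likeness (r = 0.871) and also had that order, at 25.7 to 44.1 CPM. Of 21 tested genes for upstream kinases and SRF, TCF and MRTF factors, Srf was the 1 gene with that order, against 0.721% of all genes. Its part in the members' levels was not tested.

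**Figure D4:**
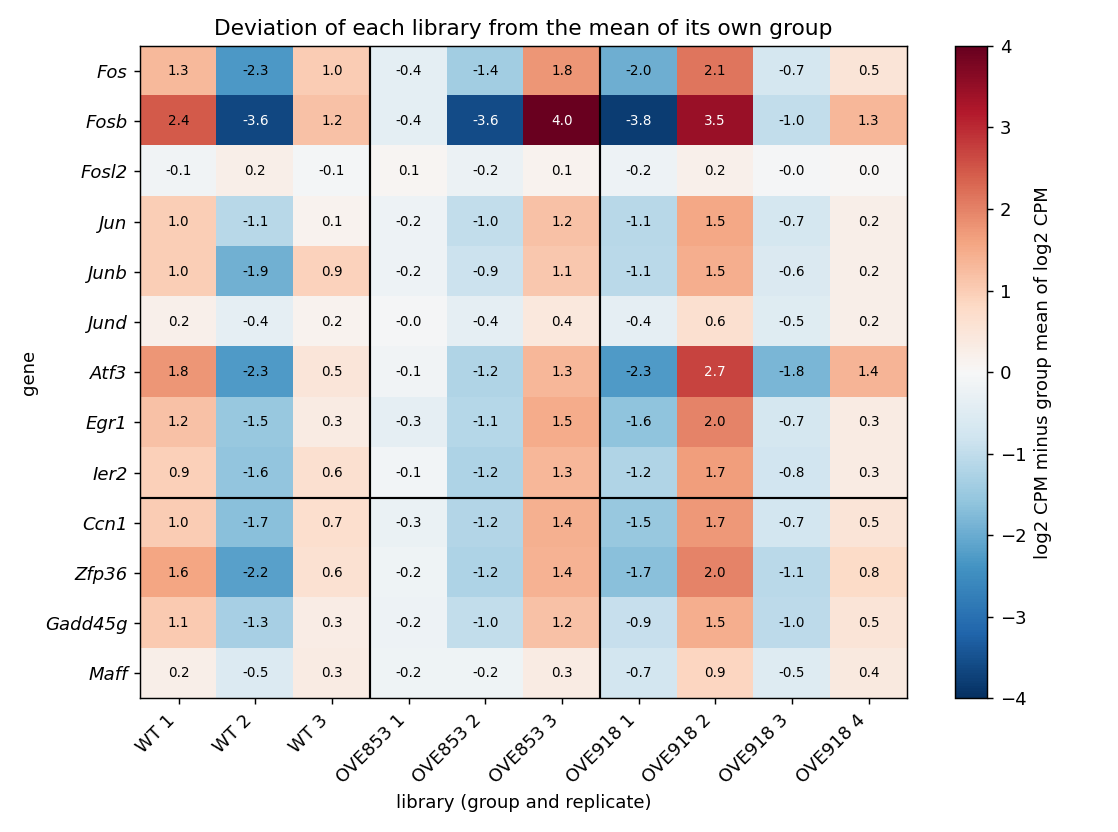
Deviation of log2 CPM in each library from the mean of its own group, for the 9 tested members (above the line) and 4 genes most like them (below the line), with red above and blue below the group mean. WT replicate 2, OVE853 replicate 2 and OVE918 replicate 1 are blue and OVE853 replicate 3 and OVE918 replicate 2 red in every row except Fosl2, whose deviations are small.

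Total counts and marker sums of the libraries were set beside this order. RNA integrity (RIN) was not set beside it and entered only as a covariate in an alternative fit below. Total counts ran from 24073311 in WT replicate 1, a library with high members, to 31908525 in OVE853 replicate 1, a library between the other two of its group. Of the 13 lists summed per library (12 lists of cell type markers and the heat shock genes), none had the members' order in all 3 groups, and a single list had it in WT (pigmented epithelium and melanocytes) and a single one in OVE853 (cornea). WT replicate 3, with its high retinal and corneal sums, was the middle WT library for the 8 members. The lens fiber sum was lowest in OVE853 replicate 3 and OVE918 replicate 2, the libraries with the most Fos of their groups. It was at 25363 of up to 45055 CPM and at 37971 of up to 72936 CPM there. In WT it was highest, at 53217 CPM, in replicate 1, which had the most Fos. The lens epithelium, photoreceptor, retinal neuron, Müller glia and heat shock sums were also lowest in those same transgenic libraries, so this was not particular to fiber markers. In WT the lens epithelium sum was likewise highest in replicate 1, and the photoreceptor, retinal neuron, Müller glia and heat shock sums were highest in replicate 3. The part of cell makeup in the members' spread was not tested.

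Because FOS proteins need a JUN partner, transcripts were also compared per length, in FPKM summed over each family. The FOS family (Fos, Fosb, Fosl1 and Fosl2) summed to 197, 20.2 and 159 FPKM in WT, to 73.4, 37.4 and 329 FPKM in OVE853, and to 32.4, 517, 72.5 and 165 FPKM in OVE918. The JUN family summed to 364, 149 and 315 FPKM in WT, to 233, 163 and 449.7 FPKM in OVE853, and to 162, 602, 180.3 and 314 FPKM in OVE918. JUN transcripts exceeded FOS transcripts in all 10 libraries, and the FOS to JUN ratio ran from 0.135 in WT replicate 2 to 0.858 in OVE918 replicate 2, with overlap between the groups.

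Within the FOS family, Fos made up 73.7% to 94.0% of the FPKM. Fosl2 made up 25.4% of it in WT replicate 2, where Fos was lowest, and 1.26% in OVE918 replicate 2, where Fos was highest. Within the JUN family, the share of Jund was 77.3% in WT replicate 2 and 31.3% in OVE918 replicate 2, and that of Junb was 9.52% and 41.2% in the same libraries. In each genotype Jund and Fosl2 took their smallest shares in the library with the highest family total.

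**Figure D5:**
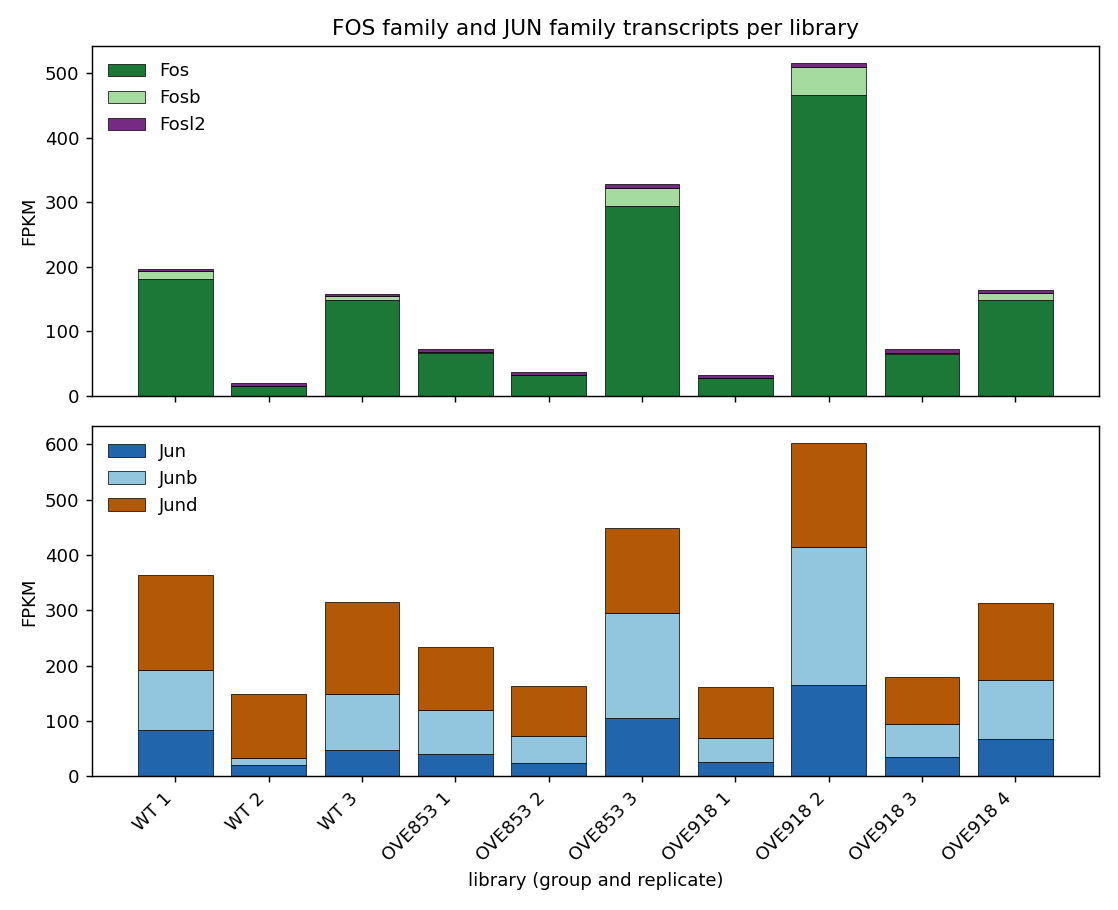
FPKM of the FOS family genes Fos, Fosb and Fosl2 (upper panel) and of the JUN family genes Jun, Junb and Jund (lower panel), stacked for each of the 10 libraries; Fosl1 is at most 0.207 FPKM and is not drawn. The FOS total ranges from 20.2 FPKM in WT replicate 2 to 517 FPKM in OVE918 replicate 2, and Jund ranges from 85.1 to 189 FPKM.

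Ratios between members within a library do not depend on the scaling of libraries. Of the 36 ratios among the 9 tested members, 6 did not overlap between OVE853 and WT, 1 between OVE918 and WT and 6 between the lines, against 43.9%, 30% and 28.1% of the 61566156 ratios between any pair of genes tested. In each comparison the members' share was below that of all pairs. Most of the ratios apart in OVE853 versus WT and between the lines include Atf3, so they are not separate observations. The ratios below were chosen after their values were seen, so they are described with no test. The Egr1 to Ier2 ratio in FPKM was 1.31 to 1.89 in WT, 0.744 to 0.978 in OVE853 and 0.694 to 1.11 in OVE918, lower in all 7 transgenic libraries than in any WT library. The Atf3 to Egr1 ratio was 0.125 to 0.319 in WT, 0.0707 to 0.0911 in OVE853 and 0.124 to 0.571 in OVE918, lower in all OVE853 libraries than in the other groups.

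By mean FPKM, Jund led in WT (151 FPKM), followed by Fos (115), Junb (74.5), Egr1 (60.7), Jun (50.5), Ier2 (37.2), Atf3 (16.7), Fosb (5.88), Fosl2 (4.40) and Fosl1 (0.069). In OVE853 and OVE918 Fos led, at 131 and 177 FPKM, ahead of Jund at 119 and 127 FPKM. Neighbors among the leading 6 genes overlapped in range in each group. In WT the lowest Jund library, at 115 FPKM, was above every WT library of Egr1, whose highest was 106 FPKM, and in all groups the Fosl1 range was apart from that of Fosl2.

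The bases just upstream of the annotated start are shown for 5 of the 8 genes that moved together, namely those with a marked motif in these bases. Jund, also among the 8, matched the promoter table but held none of the motifs searched, and Egr1 and Ier2 had no entry. Sequences are from RefSeq on GRCm38.p6, 120 bases ending at the base before the start, 5′ to 3′ on the strand of the gene. Capitals mark TGACG on either strand (the core of the cAMP response element, also part of TGACGTCA), TGACATCA (an AP-1 site variant) and GCGNGGGCG (a motif of EGR proteins). They lie at chr12:85473770-85473889 (plus strand) for Fos, chr7:19310046-19310165 (minus) for Fosb, chr4:95052223-95052342 (minus) for Jun, chr8:84978749-84978868 (minus) for Junb and chr1:191183334-191183453 (minus) for Atf3.
Fos: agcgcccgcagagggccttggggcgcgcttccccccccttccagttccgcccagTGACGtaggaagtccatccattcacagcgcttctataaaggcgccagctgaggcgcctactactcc
Fosb: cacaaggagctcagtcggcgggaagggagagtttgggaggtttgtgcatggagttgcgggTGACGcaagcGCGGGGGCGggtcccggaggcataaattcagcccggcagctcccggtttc
Jun: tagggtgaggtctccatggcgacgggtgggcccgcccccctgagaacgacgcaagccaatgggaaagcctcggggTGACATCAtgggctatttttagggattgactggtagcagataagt
Junb: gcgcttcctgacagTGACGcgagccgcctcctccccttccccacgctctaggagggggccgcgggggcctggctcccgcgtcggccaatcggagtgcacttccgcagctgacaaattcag
Atf3: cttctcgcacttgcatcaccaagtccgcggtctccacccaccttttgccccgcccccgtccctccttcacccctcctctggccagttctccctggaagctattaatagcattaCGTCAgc

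Windows of 300 bases (250 before the start and 50 after) were searched on both strands for the 7 members that matched by symbol. TGACG was in 4 of them (Fos, Fosb, Junb and Atf3) and in 20.8% of all 32851 windows, at position -66 in Fos and -60 in Fosb, counted back from the start. TGACATCA was in Jun alone of the 7, at position -45, and in 3.62% of all windows. GCGNGGGCG was in Fosb and Fosl2 and in 5.55% of all windows. The AP-1 consensus TGACTCA (5.2% of windows), TGACGTCA (1.79%) and the CArG box bound by SRF (1.63%) were in none of the 7, which says only that these letters are not in these windows. On GRCm39, the build of the counts, Fos spans chr12:85520658-85524047, Jun chr4:94937271-94940459 and Fosl2 chr5:32292707-32315186. Junb, Jund and Ier2 all lie on chromosome 8, with Ier2 at chr8:85387960-85389483 and Junb at chr8:85701113-85705359.

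The wider pathway was described with lists of genes around the members. Of 20 other basic leucine zipper genes whose products pair or compete with AP-1, 16 were tested, and 0 were called in OVE853 and 1 in OVE918 (6.25%, against 5.6% of all genes). That gene was Jdp2, which encodes a repressor that dimerizes with JUN. Jdp2 was at 30.2, 40.6 and 36.9 CPM in WT, at 17.9, 18.6 and 22.0 CPM in OVE853 and at 19.6, 17.4, 13.0 and 18.1 CPM in OVE918. All transgenic libraries were below all WT libraries. Its log2 fold change of -1.08 in OVE918 (SE 0.15, edgeR FDR 0.000626) was a call, and that of -0.88 in OVE853 (SE 0.16, FDR 0.00576) passed the FDR but not the fold limit. The 16 genes had median log2 fold changes of 0.06 (OVE853) and 0.10 (OVE918), where those of all genes tested were -0.01 and 0.01. At the FDR limit alone, Ddit3 and Jdp2 were reduced in OVE853 and Jdp2 in OVE918, where 7.69% and 11% of all genes were. At that limit 0 of the 16 were elevated. Under a count-based filter of 18058 genes, Batf3 of this list was elevated in OVE918 (log2 fold change 1.32, SE 0.38, edgeR FDR 0.0352). It was not called in OVE853 (1.13, SE 0.39, FDR 0.0779). This filter called 6.89% and 8.79% of all genes in OVE853 and OVE918.

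Of 40 other early response genes, 25 were tested, with a median within-group SD of 0.55. In each line 1 of the 25 was called (4%, near the 4.42% and 5.6% of all genes), Nfkbia in OVE853 and Ier3 in OVE918. At the FDR limit alone, 5 were elevated and 1 reduced in OVE853, where 8.1% and 7.69% of all genes were. In OVE918 6 were elevated and 1 reduced at that limit, where 8% and 11% of all genes were. Nfkbia, the NF-κB inhibitor that NF-κB itself induces, was at 14.1 to 20.7 CPM in WT, 33.7 to 45.1 CPM in OVE853 and 28.2 to 41.5 CPM in OVE918, with both lines above all WT libraries. Its log2 fold change was 1.17 (SE 0.18, edgeR FDR 0.00173) in OVE853 and 0.99 (SE 0.17, FDR 0.00206) in OVE918, just under the fold limit. Ier3, an early response gene with a role in cell survival, was at 2.54 to 10.6 CPM in WT and 12.1 to 23.4 CPM in OVE918, with a log2 fold change of 1.40 (SE 0.41, FDR 0.0416). The order of libraries seen for Fos was shared by 6 of the 25 genes (Btg2, Ccn1, Klf4, Socs3, Trib1 and Zfp36), against 0.721% of all genes tested. Of those 6, 0 was called. Trib1 passed the FDR limit alone in both lines, and the others of the 6 in neither. Its log2 fold change was 0.57 (SE 0.14, edgeR FDR 0.0187) in OVE853 and 0.67 (SE 0.13, FDR 0.00417) in OVE918.

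Some early response genes fell under the 2 FPKM limit and were tested with edgeR under the count-based filter of 18058 genes, where 6.89% and 8.79% were called in OVE853 and OVE918. Under it Dusp2, Dusp5, Plk3 and Egr3 were elevated in OVE918, and of these Dusp2 also in OVE853. The others tested this way, Egr2, Ier5l, Klf2, Myc, Npas4, Nr4a2, Nr4a3, Plk2, Ptgs2 and Sik1, were called in neither line. Dusp2 was low throughout, at 0.089 to 0.115 CPM in WT, 0.340 to 0.514 CPM in OVE853 and 0.385 to 0.931 CPM in OVE918. Egr3, a relative of Egr1, named after its values were seen, had 20, 2 and 6 counts in WT, 43, 28 and 188 in OVE853, and 39, 672, 56 and 148 in OVE918. Its log2 fold change was 4.57 (SE 1.34, FDR 0.0459) in OVE918 and 2.94 (SE 1.34, FDR 0.162) in OVE853, and every OVE918 library (1.67 CPM or more) and every OVE853 library (1.04 CPM or more) was above every WT library (at most 0.894 CPM). The highest library of each group was the one with the most Fos.

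Of 22 upstream kinases and SRF, TCF and MRTF factors, 21 were tested and had a median within-group SD of 0.16, near the 0.18 of all genes. OVE853 had 2 calls (9.52%, against 4.42% of all genes). Map3k1, a kinase upstream of JNK, was elevated at 139 to 147 CPM against 42.7 to 68.3 CPM in WT (log2 fold change 1.27, SE 0.21, edgeR FDR 0.00347), and Mapk10, the neuronal JNK gene, was reduced at 5.96 to 8.26 CPM against 12.2 to 42.2 CPM (log2 fold change -1.75, SE 0.46, FDR 0.0322). The highest Mapk10 value was in WT replicate 3, the library with high retinal neuron markers, and its part in that difference was not tested. In OVE918 the list had 0 calls, and Map3k1 was at 71.4 to 127 CPM, above WT in every library. At the FDR limit alone, 2 of the list were elevated and 3 reduced in each line, with Mapk3 and Mapk9 reduced in both. Of all genes, 8.1% were elevated and 7.69% reduced at that limit in OVE853, and 8% and 11% in OVE918. Of the EGR1 corepressor genes Nab1 and Nab2, neither was called, though Nab1 passed the FDR limit in both lines, with log2 fold changes of -0.37 (SE 0.09, FDR 0.0161) and -0.30 (SE 0.08, FDR 0.0265).

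Textbook AP-1 targets were called more often than the members, in a list chosen with earlier results of these data known. Of 19 listed, 11 were tested, of which 6 were called in OVE853 (54.5%, against 4.42% of all genes) and 7 in OVE918 (63.6%, against 5.6%). In OVE853 5 were elevated and 1 reduced, where 2.51% and 1.91% of all genes were, and in OVE918 6 were elevated and 1 reduced, where 2.58% and 3.02% of all genes were. The reduced gene was Hbegf, an EGF family growth factor, in both lines. The list includes Tgfb1, whose reads the paper attributes to the mouse gene and the human transgene together. Many genes of the list also answer to TGF-β through SMADs. The paper already reports Spp1, Timp1 and Ccl2 as elevated in both lines. Because of how the list was chosen, the shares called are described with no test. Spp1, which encodes osteopontin, was at 0.192 to 1.44 CPM in WT, 14.5 to 28.6 CPM in OVE853 and 32.0 to 162 CPM in OVE918 (log2 fold changes 4.68, SE 0.87, edgeR FDR 0.00960, and 6.56, SE 0.89, FDR 0.00119). Timp1, a metalloproteinase inhibitor, rose by 2.41 (SE 0.23, FDR 0.000105) and 3.34 (SE 0.23, FDR 6.09e-06), and Ccl2, a monocyte chemokine, by 2.82 (SE 0.33, FDR 0.000425) and 2.30 (SE 0.32, FDR 0.000678), in OVE853 and OVE918. None of the 11 targets had the members' order of libraries. Of all genes tested 0.721% had it, so a count of 0 of 11 cannot set the targets apart. OVE918 replicate 2, with the highest Fos level of all, had 33.3 CPM of Spp1 and 84.6 CPM of Timp1, the latter the lowest of its group. OVE918 replicate 4 had the highest level of both, 162 and 153 CPM. These values are for Spp1 and Timp1 alone among the 11 targets, and a relation between Fos and target levels was not tested.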

How the data were processed

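After trimming (cutadapt 5.2) and alignment to GRCm39 (mm39; STAR 2.7.11b), the authors deposited raw counts per gene from featureCounts 2.0.8 with reverse-stranded assignment. The deposited counts were analyzed here with edgeR 4.0.16 in R 4.3.3: TMM factors, 1 coefficient per group, robust dispersions and the quasi-likelihood test over all 10 libraries, with Benjamini-Hochberg adjustment (FDR) over all 11097 genes tested. A gene was tested at 2 FPKM or more (by library totals) in at least 5 libraries, using exon lengths from GENCODE vM39 (the study used RefSeq); 7489 of 50763 genes had no length there and could not be tested. SE is the absolute log2 fold change over the square root of F. Log2 CPM used a prior count of 2. The scripts were tested on simulated data. Same-numbered replicates of different groups did not deviate together. Named genes were all members, up to 4 called genes of each list (by absolute log2 fold change), Tgfb1 and the 5 genes most like the members, of which 1 is not reported here; any other gene was named after its values were seen. Members and lists were chosen with earlier results of these data known. DESeq2 1.42.0 and limma 3.58.1 were alternatives.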

Additional observations from a re-analysis of the deposited data

How the results depend on the processing

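No member was called under any of 25 alternatives, of which 2 were chosen after seeing the data (bias-adjusted deviances, and leaving out WT replicate 3 with OVE918 replicate 4). Of 627 member fold changes, 59 had another sign than the reported one and 2 reached an FDR of 0.05, both Fosl2 in OVE918 versus WT (0.0229 with the R number of the library names as a block, 0.0473 without WT replicate 2). Fosb was not tested where the filter left it out. The cause of these shifts was not tested.

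Same-numbered replicates shared no deviation (r from -0.303 to 0.0838 over 9 pairs, and 1 of 10 libraries was most like its own number), so the numbers do not pair the samples. With the replicate block, OVE853 versus WT gave log2 fold changes of -0.14 for Fos and -0.23 for Fosb, and OVE918 versus OVE853 had 28 calls. The R number block gave -0.13 for Fosb and 0.023 for Egr1 in OVE853 versus WT, and -0.091 for Junb and -0.0090 for Jund with 33 calls between the lines. With RIN as a covariate, Egr1 was 0.18 in OVE853 and -0.19 in OVE918 versus WT, and between the lines Fos was -0.39, Fosb -0.80, Fosl2 -0.0017, Jun -0.15, Junb -0.35, Jund -0.047, Egr1 -0.37 and Ier2 -0.28, with 28 calls. Under limma voom with sample weights, Egr1 was 0.82 in OVE853 versus WT, and between the lines Fos was -0.40, Fosb -0.27, Fosl2 -0.047, Jun -0.22, Junb -0.47, Jund -0.23, Egr1 -0.38 and Ier2 -0.40, with 111 calls. Library totals alone gave -0.15 for Fosl2, -0.056 for Junb and -0.084 for Jund between the lines, with 108 calls.

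Leaving out 1 library at a time, log2 fold changes in OVE853 versus WT ran from -1.22 to 0.67 for Fos, -0.66 to 0.75 for Jun, -0.21 to 0.87 for Junb, -1.30 to 0.50 for Egr1 and -0.28 to 1.08 for Ier2. In OVE918 versus WT they ran from -0.51 to 1.11 for Fos, -0.22 to 1.14 for Jun, -0.10 to 0.97 for Junb, -0.35 to 1.93 for Atf3 and -0.83 to 0.91 for Egr1, and all 5 lowest values were without OVE918 replicate 2. Between the lines they ran from -0.70 to 1.85 for Fos, -0.14 to 0.84 for Fosb, -0.078 to 0.10 for Fosl2, -0.39 to 1.204 for Jun, -0.62 to 0.82 for Junb, -0.17 to 0.33 for Jund, -0.66 to 1.52 for Egr1 and -0.59 to 1.199 for Ier2, and the calls over all genes from 6 to 93. Calls over all genes in OVE853 and OVE918 versus WT were 1244 and 1587 with the count-based filter, 1061 and 1548 with no filter, and 1752 and 2110 without the fold limit. Between the lines they were 146 without the fold limit, 107 with DESeq2 and 97 with only the groups compared.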
